A study of Mus musculus with 96 samples.

Results

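The genes described here are the nuclear genes of the oxidative phosphorylation chain, taken as every gene of the deposited expression table whose name begins with Ndufa, Ndufb, Ndufc, Ndufs or Ndufv and a digit, is Sdha, Sdhb, Sdhc or Sdhd, begins with Uqcr, begins with Cox and a digit from 4 to 8, or begins with Atp5. This name rule found 84 of 23955 genes: 37 named for complex I, 4 for complex II, 8 for complex III, 18 for complex IV and 17 for complex V. Expression was measured by RNA-seq of 96 single ThPOK-/- bone marrow cells on the C57BL/6 strain, which carry a knockout of the ThPOK transcription factor gene, Zbtb7b. Bead enrichment for CD117, the receptor Kit, was followed by antibody staining and sorting of cells that the labels call modified GMP (granulocyte-monocyte progenitors), with the gate not given in the sources used here, and a Fluidigm C1 chip then took up the cells for SMARTer cDNA and Nextera XT libraries. All 96 cells share genotype, strain and tissue, no label names an animal, age or sex or says how the deletion was made, and wild-type cells of the series were not analysed here. The authors' deposited annotation places 26 cells in a state called Multi-Lin-1, 31 in IG2 and 12 in proNeu-1, and 27 cells have no state. No source used here says how these states were defined. The 96 cells were treated as 1 sample, so the values below are descriptions without tests, and every SD is over cells, not animals.

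Oxidative phosphorylation makes most of the ATP of a resting cell. Complex I (NADH dehydrogenase) and complex II (succinate dehydrogenase, which is also a step of the citric acid cycle) pass electrons to ubiquinone. Complex III (the cytochrome bc1 complex) and complex IV (cytochrome c oxidase) carry them on to oxygen, and complex V (ATP synthase) uses the proton gradient that complexes I, III and IV build. All subunits of complex II are encoded in the nucleus, whereas the other complexes also hold subunits encoded by the mitochondrial genome, for which the table has 0 rows. The name rule also takes in genes that are not chain subunits in the strict sense. Cox7a2l encodes a factor that joins complexes III and IV into supercomplexes, and Ndufa4 is now counted with complex IV. Atp5s and Atp5sl are not subunits of the ATP synthase, and are counted with complex V here by name only.

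Levels are given as TPM (transcripts in every 1000000, corrected for transcript length, so that genes can be set side by side) and differences on the log2(TPM + 1) scale. Detection of a gene means a TPM of at least 1. The number of reads per cell is unknown. The number of genes detected stands in for depth, and its median was 2950 for Multi-Lin-1, 3940 for IG2, 4127.5 for proNeu-1 and 2613 for the stateless cells, with a range over all cells from 1019 to 5203. The states therefore differ in genes detected, and state and genes detected cannot be fully told apart. Whether the states differ in reads per cell is not known. Zbtb7b itself reached a TPM of 1 in 2 of 96 cells. The label was checked against markers of GMP, bearing in mind that the modified gate is not known. Mpo, a granule enzyme, was detected in 96 cells, Elane in 92, Cd34 in 73, Kit in 67 and Fcgr3 in 56. These are the 5 of 6 listed markers that were detected in at least 50% of cells, and Fcgr2b was not. Fcgr3 (the CD16 receptor, part of the usual GMP gate) was detected in 23.1% of Multi-Lin-1 against 77.4% of IG2 cells. Cell names carry the numbers 078 and 079, of unstated meaning, with 48 cells each and 0 cell numbers in common. In 2 cells a single gene held over 50% of the members' TPM: Atp5a1 reached 27643 TPM in a Multi-Lin-1 cell with 2009 genes detected, and Atp5l reached 48736 TPM in a cell without a state with 1019 genes detected. Values without these 2 cells are given beside the results that they move most.

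Promoters of members are shown first, because many of these genes are known targets of the transcription factors NRF1, GABP (an ETS family factor) and YY1. RefSeq promoter windows (GRCm38.p6, from 250 bases before to 50 bases after the annotated start) were matched for 69 of the 84 genes, 3 of them by synonym. The 4 stretches below were chosen for the values that follow: Sdhd had the largest difference between IG2 and Multi-Lin-1, Uqcr11 had the highest median correlation with the other members, Cox6a1 had the highest mean level, and Cox7a2l was the gene lower in IG2 by at least 1 log2 unit. Each is the longest run within the 250 bases before the start that holds no annotated exon of any gene, 5′ to 3′ on the gene's own strand, with motif matches in capitals. They lie at chr9:50603850-50603909 for Sdhd, chr10:80406831-80407071 for Uqcr11, chr5:115348982-115349129 for Cox6a1 and chr17:83514334-83514583 for Cox7a2l, all on the minus strand.
Sdhd: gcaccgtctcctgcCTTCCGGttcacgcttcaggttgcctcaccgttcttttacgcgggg
Uqcr11: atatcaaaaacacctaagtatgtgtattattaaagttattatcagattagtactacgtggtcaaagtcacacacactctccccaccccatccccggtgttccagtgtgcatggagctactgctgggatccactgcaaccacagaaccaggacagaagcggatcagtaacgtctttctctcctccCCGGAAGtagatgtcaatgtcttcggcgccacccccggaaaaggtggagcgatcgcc
Cox6a1: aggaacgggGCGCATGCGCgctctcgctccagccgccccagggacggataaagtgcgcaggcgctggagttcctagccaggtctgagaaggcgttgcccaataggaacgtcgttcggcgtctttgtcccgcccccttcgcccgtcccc
Cox7a2l: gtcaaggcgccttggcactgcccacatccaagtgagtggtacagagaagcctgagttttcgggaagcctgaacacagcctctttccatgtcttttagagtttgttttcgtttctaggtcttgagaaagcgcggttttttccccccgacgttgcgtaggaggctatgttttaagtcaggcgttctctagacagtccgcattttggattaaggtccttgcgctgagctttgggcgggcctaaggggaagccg

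The capitals mark an ETS match (CCGGAAG, or CTTCCGG on the other strand) 46 bases before the start of Sdhd and 66 bases before that of Uqcr11, and an NRF1 match in Cox6a1, which is the NRF1 core GCATGCGC with the letters GC before it. Outside the printed runs, the Uqcr11 window also holds an NRF1 core at position -4 and the Cox6a1 window an ETS match at -16, counted from the start. Over the 300-base windows, searched on both strands, the NRF1 match was found in 6.67% of 75 member windows and in 0.971% of all 32851 windows. The core alone, which every longer match contains, was found in 13.3% of member windows against 2.71% of all. The ETS match was found in 21.3% against 8.86%, and the YY1 match (AAGATGGC) in 16% against 2.75%. The TATA box letters (TATAAA) were found in 10.7% of member windows against 13.6% of all. None of these motifs was found in the Cox7a2l window. These are matches of letters, not measured binding sites. The factors themselves were sparse in these cells: Nrf1 was detected in 31.3% of cells, Yy1 in 36.5%, Gabpb1 in 34.4% and Gabpa in 24%.

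The members were among the most widely detected genes of the table. Of the 84, 75 were detected in at least 50% of the 96 cells, against 9.48% of all 23955 genes, and 77 in at least 10% of cells, against 33.6% of all genes. Only Atp5s, detected in 26% of cells, and Atp5sl, detected in 21.9%, fell between these limits. The genes at 0 in every cell were Cox6a2, Cox7b2, Cox8b, Cox8c and Ndufa4l2. Cox4i2 was detected in 1 IG2 cell and Cox7a1 in 1 proNeu-1 cell. These 7 genes are tissue-restricted or oxygen-dependent forms of subunits whose common forms were abundant in the same cells.

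By mean TPM over all cells, the highest member was Cox6a1 at 2455, followed by Atp5l at 1383, Cox4i1 at 1312, Ndufa4 at 1307, Uqcr11 at 1279 and Atp5b at 1067. Cox6a1 was detected in 95 of 96 cells and was the highest member in 42 of them. Its level in Multi-Lin-1 ran from 5.36 to 6778 TPM with a median of 2571, and in IG2 from 783 to 6079 with a median of 2474. These ranges overlap almost wholly. The mean of Atp5l includes the cell at 48736 TPM, and is 894 without both cells led by 1 gene. Its state medians ran from 491 to 886. Among tested genes, those detected in at least 10% of cells, the median of the mean TPM was 291 for complex I, 258 for complex II, 553 for complex III, 583 for complex IV and 687 for complex V. Some core subunits were at low levels: Ndufs1, the largest iron-sulfur subunit of complex I, had a mean of 112 TPM, and Uqcrfs1, the Rieske iron-sulfur protein of complex III, a mean of 105. In complex V, by contrast, the catalytic Atp5b was among the highest. The plot of mean level by gene shows this order.

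**Figure D1:**
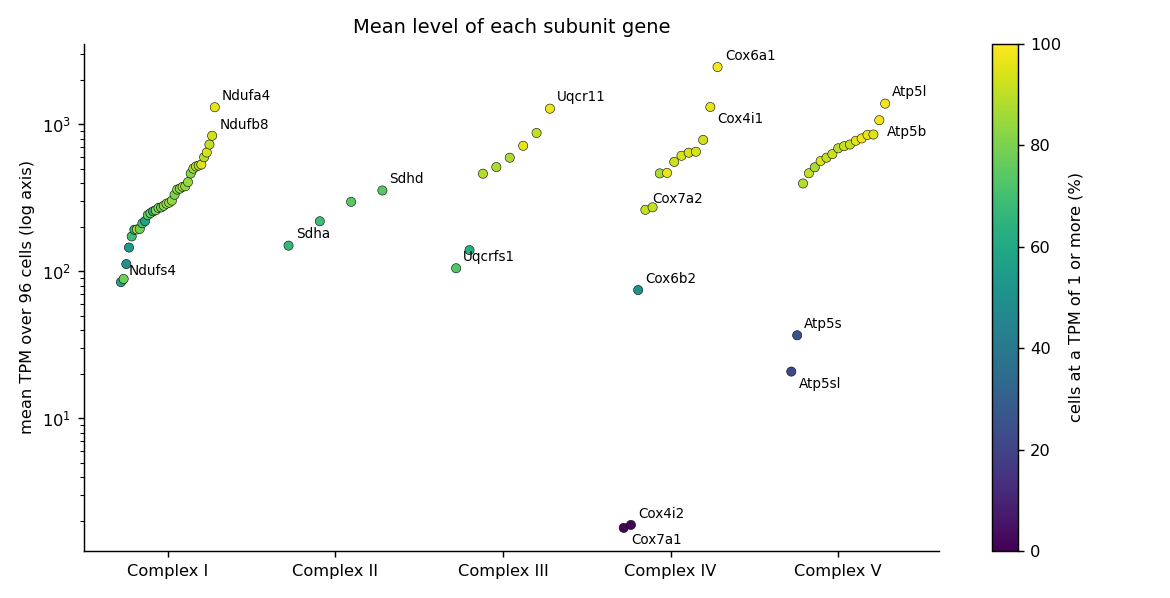
Mean TPM over 96 cells (log axis) of each of the 79 members with any cell at a TPM of 1 or more, grouped by complex and ordered by level, with colour for the share of cells in which the gene was detected. Cox6a1 is highest at 2455, and Cox4i2 and Cox7a1, each detected in 1 cell, lie far below the others.

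Most isoform families were made up of their common forms. Cox4i1, the common form of subunit 4, made up 99.9% of the COX4 TPM, and Cox6a1, Cox7b, Cox8a and Ndufa4 made up 100% of their families. Cox6b2, known as the testis form of subunit 6B, was an exception: it was detected in 49 of 96 cells, 20 of 31 in IG2, 10 of 26 in Multi-Lin-1, 7 of 12 in proNeu-1 and 12 of 27 without a state. Its highest value was 617 TPM, in IG2, and it held 8.69% of the summed COX6B TPM, against 91.3% for Cox6b1. Cox6b2 led Cox6b1 in 7 cells. A junction between its annotated exons had PSI values, the fraction of reads that take that junction, in 31 cells, with a mean of 0.990, so its reads include spliced ones.

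The COX7A pair divided differently between states. Cox7a2l held 71.5% of the COX7A TPM in Multi-Lin-1, 55.9% in IG2, 50.4% in proNeu-1 and 69.3% where no state was given, and Cox7a2, the subunit of complex IV itself, held nearly all of the rest. Cox7a2l led in 17 of 26 Multi-Lin-1 cells and in 14 of 31 IG2 cells. The 3 genes for the c subunit of ATP synthase, which encode one mature protein with different import signals, took these parts over all cells: Atp5g1 38.6%, Atp5g2 38.3% and Atp5g3 23.1% of their summed TPM. In proNeu-1 the shares were 48.7% for Atp5g1, 26.5% for Atp5g2 and 24.8% for Atp5g3, and Atp5g1 led in 8 of 12 cells, against 12 of 31 in IG2.

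Summed over the chain, the members held a like part of the transcriptome in each named state. The summed TPM per cell had a median of 38413 in Multi-Lin-1 (lowest 19377, highest 53029), 40782 in IG2 (28504 to 49231), 42118 in proNeu-1 (33938 to 47893) and 33675 in cells without a state (19134 to 64077). The median share of all TPM was 3.84%, 4.08%, 4.21% and 3.37%. The ranges of the states overlap, the IG2 median was 1.06 times that of Multi-Lin-1, and the spread was wider in Multi-Lin-1 (SD 8925) than in IG2 (SD 4945). Over the same cells the summed TPM of 11 primary granule genes, the enzymes stored in neutrophil granules, had a median of 5375 in Multi-Lin-1, 44268 in IG2 and 84797 in proNeu-1, so that granule transcripts take a larger part of the fixed TPM total in IG2 and proNeu-1.

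By complex, the medians in IG2 and Multi-Lin-1 were within 10% of each other for complex I (13594 and 13035), complex IV (9045 and 9328) and complex V (11353 and 10469). Complex III had a median of 5775 in IG2 and 4050 in Multi-Lin-1, a ratio of 1.43. Complex II stood furthest apart, with a median of 1321 in IG2 and 346 in Multi-Lin-1, a ratio of medians of 3.82 and of means of 1.73. Without the Multi-Lin-1 cell led by Atp5a1, that median was 375. Of the 26 Multi-Lin-1 cells, 14 lay below the lowest IG2 cell, at 519 TPM, although the highest complex II sum of all, 3209, was also in Multi-Lin-1. Restricted to the 17 IG2 and 16 Multi-Lin-1 cells in the range of genes detected that both states share, 2540 to 3973, the complex II medians were 1366 and 633, a ratio of 2.16, and 7 of the 16 Multi-Lin-1 cells lay below 519. In that range the ratio of medians was 1.14 for complex III and 0.981 for all members. The genes detected still differed there, with medians of 3609 and 3353.

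**Figure D2:**
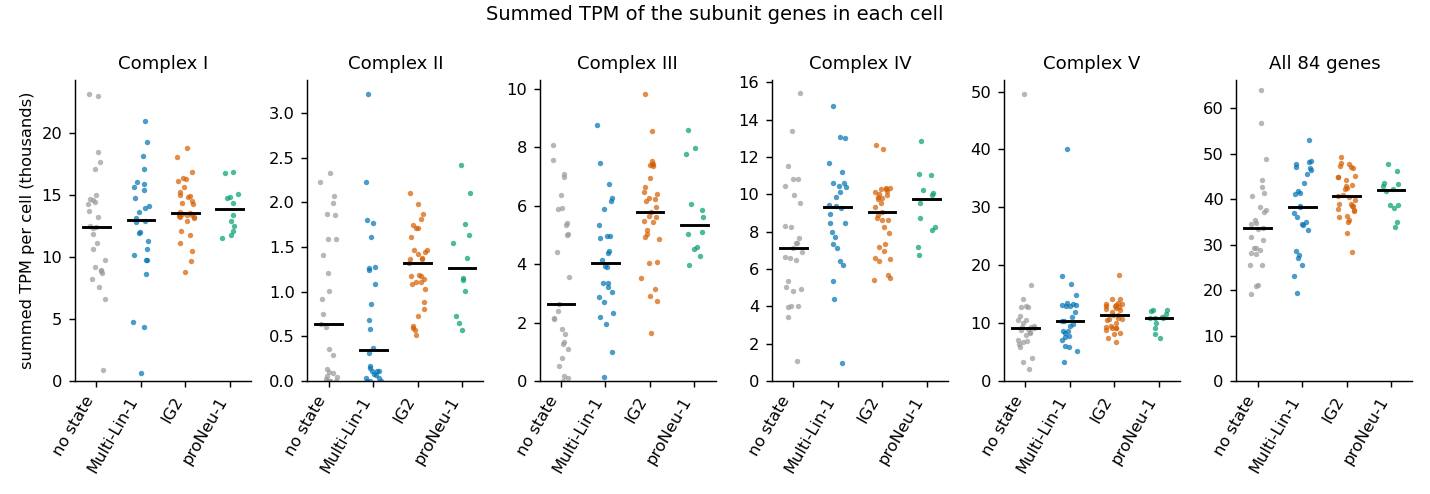
Summed TPM per cell (in units of 1000) of the members of each complex and of all 84 genes, by state; each point is a cell and each bar the median of a state. The complex II panel shows the low Multi-Lin-1 cells (median 346 against 1321 in IG2), while the panels of complexes I, IV and V have similar medians in these states, and the top points of the complex V panel are the 2 cells led by Atp5a1 and Atp5l.

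Complex II has 4 genes: Sdha carries the flavin that oxidises succinate, Sdhb the iron-sulfur clusters, and Sdhc and Sdhd anchor both in the membrane. All 4 were detected together in 6 of 26 Multi-Lin-1 cells, 19 of 31 IG2 cells, 8 of 12 proNeu-1 cells and 4 of 27 cells without a state. Sdhd had a median of 18.9 TPM in Multi-Lin-1 (range 0 to 1230), 580 in IG2 (0 to 1467), 613 in proNeu-1 (0 to 1616) and 8.41 without a state (0 to 1511). It was detected in 61.5% of Multi-Lin-1 cells (95% Clopper-Pearson interval 40.6% to 79.8%) and 90.3% of IG2 cells (74.2% to 98.0%). Its mean log2 level was 4.22 ± 3.94 (SD, n = 26 cells) in Multi-Lin-1 and 7.80 ± 3.08 (n = 31) in IG2, a difference of 3.57 that was 4.40 among cells numbered 078 and 2.92 among those numbered 079. The difference was 2.73 within the shared range of genes detected and 1.78 among cells that detected Sdhd. It was the one member past 1 log2 unit in each of the 8 ways of computing the difference, which were all cells, centring per cell, regression on genes detected (1.02), the shared range, detecting cells, the ratio of mean TPM, and each set of cell names. Sdhd was also the member with the largest difference over all cells. The share of all tested genes past 1 log2 unit in all 8 ways was not computed, so this has no background.

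Sdhb had a median of 44.4 TPM in Multi-Lin-1 (0 to 2061), 324 in IG2 (0 to 1013), 142 in proNeu-1 (0 to 840) and 82.8 without a state (0 to 1803). Its log2 difference between IG2 and Multi-Lin-1 was 3.10, and 1.20 within the shared range of genes detected. It was the member furthest below IG2 in proNeu-1, at -1.75. Sdha went the other way in that comparison: its median was 3.91 TPM in Multi-Lin-1, 59.5 in IG2 and 342 in proNeu-1, and it stood 1.95 log2 units higher in proNeu-1 than in IG2, with 0.78 in cells numbered 078 and 3.12 in those numbered 079. Sdhc was detected in 13 of 26 Multi-Lin-1 and 26 of 31 IG2 cells, a log2 difference of 2.37, but its mean TPM did not follow (244 and 230), and among cells that detected it the difference was -0.03. Over the 4 genes, the median difference was 30.4 percentage points in the share of cells that detected the gene and 0.73 log2 units among detecting cells.

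**Figure D3:**
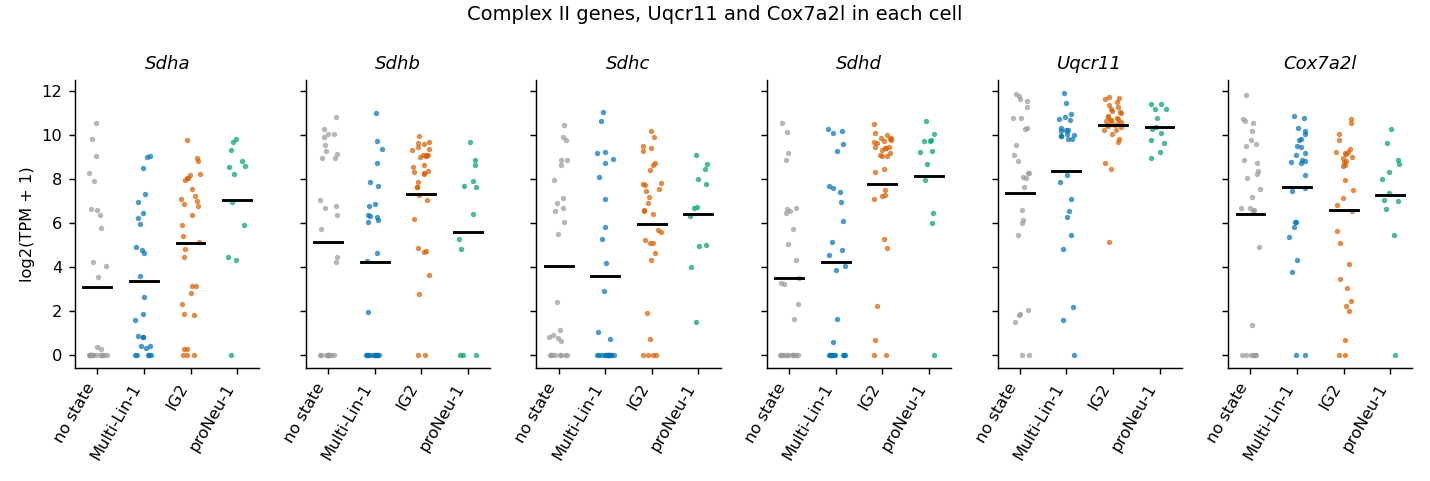
Level in log2(TPM + 1) of the complex II genes, Uqcr11 and Cox7a2l in each cell, by state; each point is a cell and each bar the mean. Many Multi-Lin-1 cells lie at 0 for the complex II genes, while most IG2 cells of Sdhd lie above its mean of 7.80, which includes 3 cells under the detection limit, and Cox7a2l is the one of these genes with a lower mean in IG2 (6.61) than in Multi-Lin-1 (7.65).

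Gene by gene on the log scale, the members stood higher in IG2 than in Multi-Lin-1. Of 77 tested members, 56 were higher by at least 1 log2 unit, against a background of 31.1% of 8044 genes tested and 49.3% of the 2270 genes detected in at least 50% of cells, and 1 was lower, against 2.54% and 3.04%. The median difference was 1.44 over the members, 0.53 over all tested genes and 0.97 over the widely detected ones. By complex, 27 of 36 members of complex I were higher, 4 of 4 of complex II, 7 of 8 of complex III, 7 of 12 of complex IV and 11 of 17 of complex V, with medians of 1.58, 2.74, 1.20, 1.09 and 1.34. Without the 2 cells led by a single gene, 46 were higher (background 30.1%), 0 lower (background 2.92%), and the median was 1.27 (0.51 over all tested genes). In both sets of cell names, each taken on its own, 32 members (41.6%) were higher by 1 log2 unit, against 17.1% of all tested genes and 30.8% of widely detected ones.

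These log differences moved with the number of genes detected. The mean log2 level of the members correlated with the number of genes detected at Spearman's rho of 0.91 over 96 cells, and within Multi-Lin-1 at 0.88 and IG2 at 0.75. These points share 1 sample, and both measures count genes above zero, so rho is a description only. Within the shared range of genes detected, 12 members were higher and 7 lower, with a median of 0.18, against 17.1% and 10.9% of all tested genes and their median of 0.09. Among cells that detected the gene, 15 of 76 were higher (background 13.8%, and 14.7% of widely detected genes), 4 were lower (background 17.6%, and 8.2%). Their median was 0.46, against -0.06 over all tested genes and 0.11 over widely detected ones. By mean TPM, 6 were higher by a ratio of 2 or more (background 27.7%, and 13% of widely detected genes) and 3 lower at 0.5 or less (background 20.3%, and 10.4%), with a median ratio of 1.10. The share of members higher was thus above the background among detecting cells and below it in the shared range and by mean TPM. The part of depth in the log differences was not tested. The plot of both differences per gene shows how far each falls when undetected cells are left out.

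**Figure D4:**
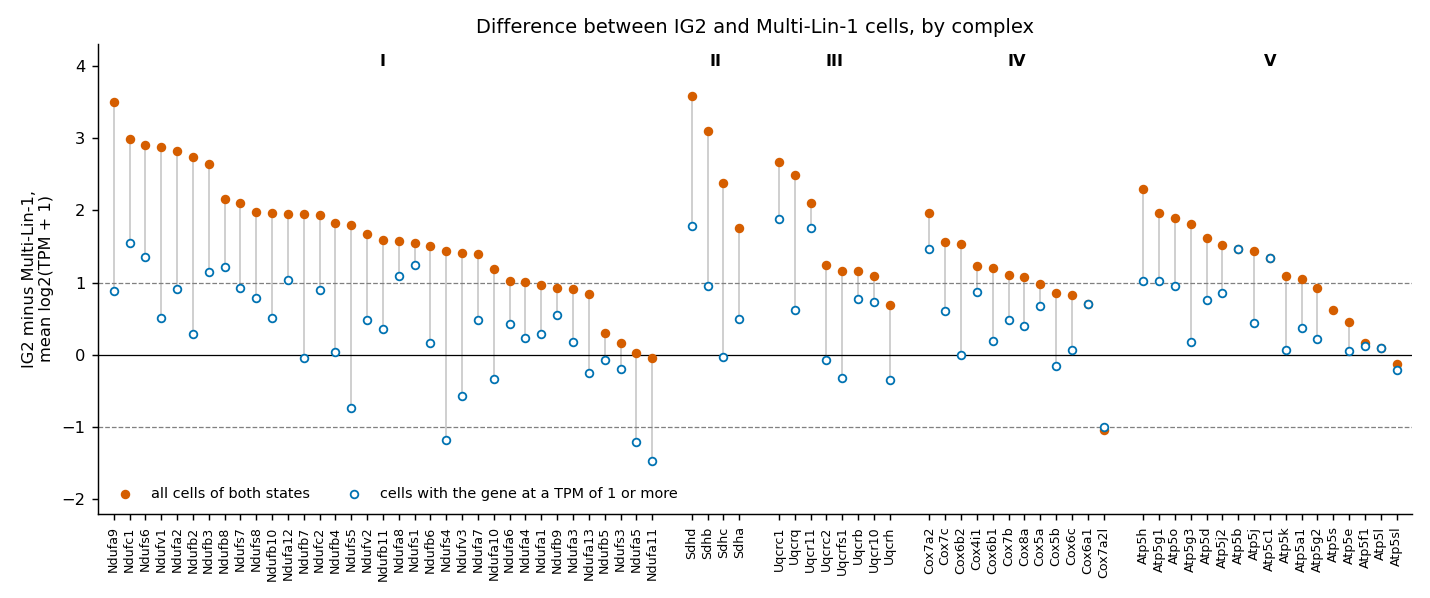
Difference in mean log2(TPM + 1), IG2 minus Multi-Lin-1, for 76 of the 77 tested members by complex (1 is not shown); filled points use all cells of both states and open points only cells with the gene at a TPM of 1 or more (genes with at least 5 such cells in both states, which leaves out Atp5s). Dashed lines mark 1 and -1. Most filled points lie above 1 and most open points below it, with Sdhd, Uqcrc1 and Uqcr11 among the open points that remain high.

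**Figure D5:**
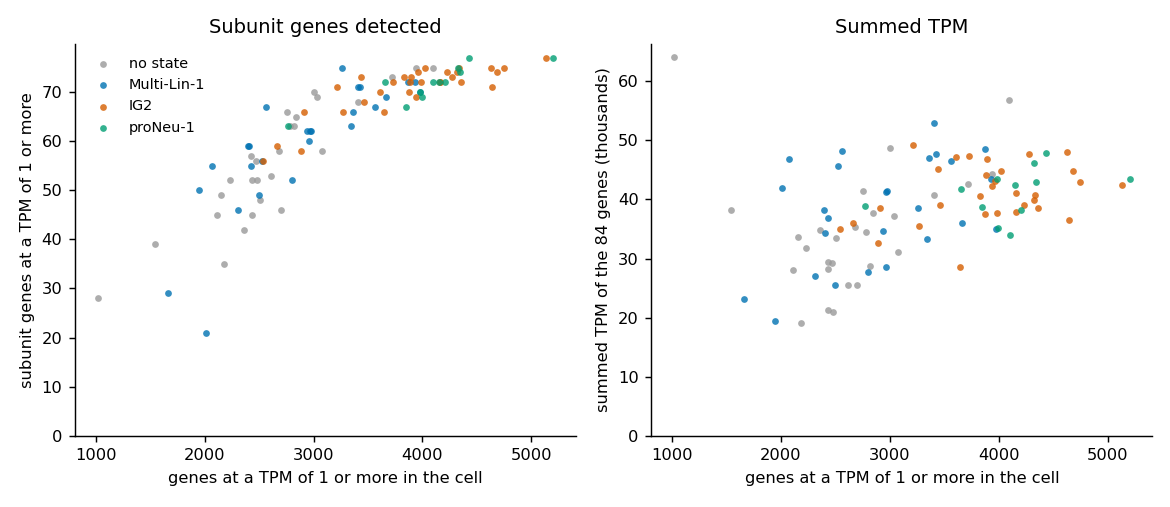
Members detected (left) and their summed TPM in units of 1000 (right) against the number of genes detected, one point per cell, coloured by state. The count of members follows the number of genes detected (rho 0.91), the summed TPM less so (rho 0.49), and the IG2 and proNeu-1 cells lie to the right of most others.

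Among complex I genes, the largest differences were in Ndufa9 (3.50), a subunit near the quinone site, Ndufc1 (2.99), Ndufs6 (2.90), Ndufv1 (2.87), which binds NADH, Ndufa2 (2.82), Ndufb2 (2.74) and Ndufb3 (2.64). Ndufa9 was detected in 10 of 26 Multi-Lin-1 cells and 25 of 31 IG2 cells, with medians of 0.535 and 285 TPM and highest values of 672 and 907. Core subunits spread widely: Ndufs7 differed by 2.10, Ndufs8 by 1.98, Ndufv2 by 1.67, Ndufs1 by 1.54 and Ndufs3 by 0.16. Ndufs3, Ndufs7 and Ndufs8 sit together in the quinone-binding module, yet their differences ran from 0.16 to 2.10. Ndufa11 (-0.04) and Ndufa5 (0.02) were near 0 over all cells, and among detecting cells they were lower in IG2, at -1.48 and -1.21. For Ndufa5 the value over all cells combines 1.17 in cells numbered 078 with -0.99 in those numbered 079.

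In complex III, Uqcrc1, a core subunit, had a median of 131 TPM in Multi-Lin-1 (0 to 2087) and 563 in IG2 (0.78 to 1691), a difference of 2.67 and still 1.88 among detecting cells. Uqcr11, a small subunit, had a median of 995 TPM in Multi-Lin-1 (0 to 3898), 1609 in IG2 (34.2 to 3411), 1282 in proNeu-1 (502 to 2762) and 307 without a state (0 to 3740). It differed by 2.09, by 1.76 among detecting cells, but by 0.29 within the shared range of genes detected. Uqcrfs1 differed by 1.16.

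In complex IV, the largest difference was in Cox7a2 (1.96), detected in 24 of 26 Multi-Lin-1 and 31 of 31 IG2 cells. Its relative Cox7a2l was the one member at least 1 log2 unit lower in IG2, at -1.04, with medians of 449 TPM in Multi-Lin-1 (0 to 1858), 250 in IG2 (0 to 1702), 212 in proNeu-1 (0 to 1244) and 190 without a state (0 to 3640). The state ranges overlap almost wholly. Cox7a2l was detected in similar shares of both states (92.3% and 90.3%), and the difference was -0.99 among detecting cells and -1.24 within the shared range of genes detected, but -1.85 in cells numbered 078 and -0.21 in those numbered 079. Without the cell led by Atp5a1 it was -0.98, under the threshold. Cox6a1 (0.71) and Cox6c (0.83) stayed under 1.

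In complex V, Atp5h (2.29) and Atp5g1 (1.96) differed most. The catalytic subunits of the F1 head, Atp5a1 and Atp5b, and its shaft Atp5c1 differed by 1.05, 1.47 and 1.34. Atp5b was detected in all cells of both states, with medians of 381 TPM in Multi-Lin-1 (6.50 to 3571) and 1097 in IG2 (75.6 to 2766), so its difference was the same among detecting cells. For Atp5a1 the mean TPM went the other way, at a ratio of 0.43, and without the cell at 27643 TPM the ratio was 1.63. Atp5l (0.09), Atp5f1 (0.17) and Atp5sl (-0.12) were level.

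IG2 and proNeu-1 had similar numbers of genes detected. Between them, the shares of members past 1 log2 unit over all cells were below the background. Of 77 tested members, 7 were higher in proNeu-1 (background 13.6%, and 13.8% of widely detected genes) and 4 lower (background 10.2%, and 10.7%), and the median difference was 0.18. The higher ones were Sdha (1.95), Ndufv3 (1.79), Ndufa2 (1.67), Ndufb9 (1.39), Ndufa7 (1.15), Ndufa1 (1.13) and Ndufb3 (1.11). The lower ones were Sdhb (-1.75), Atp5g2 (-1.17), Ndufs5 (-1.13) and Ndufs1 (-1.01). Ndufa2, an accessory subunit of complex I, had a median of 288 TPM in IG2 (0 to 1314) and 565 in proNeu-1 (114 to 1073), and with Ndufb9 it passed 1 log2 unit in both sets of cell names. No lower gene did so. Higher in both sets were thus 2.6% of members, against 5.15% of all tested genes and 5.64% of widely detected ones. Lower in both sets were 0 members, against 3.52% and 4.45%, so both shares were below the background. Only 12 cells are in proNeu-1, and the 2 sets of cell names gave different counts: 10 higher (background 16.1%) and 16 lower (background 20.4%) among cells numbered 078, and 23 higher (background 24.1%) and 1 lower (background 13.6%) among those numbered 079. The 16 lower are 20.8% of the members and the 23 higher 29.9%, so within a set the members were at or above the background in 1 direction, which was not the same in both sets.

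Cells without a state stood lower than Multi-Lin-1 in most members, but not in complex II. Of 77 tested members, 25 were lower by at least 1 log2 unit (background 12%, and 22.7% of widely detected genes) and 3 higher (background 5.21%, and 7.14%), with a median of -0.66. Complex V held 8 of the 25, complex I 10, complex IV 4, complex III 3 and complex II 0. Of the 4 complex II genes, 2 were above and 2 below Multi-Lin-1, with a median difference of 0.12. The median summed TPM of complex II was 636 without a state and 346 in Multi-Lin-1, and the ratio of means was 1.16. The lowest were Atp5f1 (-2.33), a stalk subunit of ATP synthase, Ndufa10 (-1.93), Atp5a1 (-1.85), Ndufb7 (-1.74), Ndufv2 (-1.54) and Uqcrb (-1.53). The higher ones were Ndufa2 (2.0), Ndufs5 (1.27) and Ndufa7 (1.08). Atp5f1 had a median of 584 TPM in Multi-Lin-1 (0 to 2137) and 169 without a state (0 to 2046), and was detected in 25 of 26 and 20 of 27 cells. Among detecting cells 10 of 75 members were lower (background 15.6%, and 12% of widely detected genes) and 7 higher (background 17.2%, and 12.3%), and the median was -0.09. Without the 2 cells led by 1 gene, 25 were lower (background 12.5%) and 4 higher (background 5.88%). The median was then -0.65, and Atp5a1 was at -1.51. This comparison uses the same Multi-Lin-1 cells as the one with IG2. In both sets of cell names, 9 members (11.7%) were lower by 1 log2 unit, against 5.26% of all tested genes and 11.1% of widely detected ones, among them Atp5a1, Atp5f1, Cox5a, Cox5b and Ndufb7.

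Across cells the members varied together only weakly. The median Spearman's rho over pairs of the 75 widely detected members was 0.15, against 0.069 over pairs of all 2270 widely detected genes. It was 0.16 within Multi-Lin-1 (0.053 for all genes), 0.15 without a state (0.068), 0.046 within IG2 (0.017) and 0.015 within proNeu-1 (0.014). The points share 1 sample, depth and a fixed TPM sum. Pairs within complex III had the highest median, 0.26, against 0.19 in complex II, 0.16 in V, 0.14 in I and 0.12 in IV. Uqcr11 had the highest median rho with the other members, 0.26, and its pairs with Ndufb2 (0.48) and Ndufs6 (0.46) were the 2 highest of all. Cox7a2l (-0.040), Atp5l (0.00) and Cox7c (0.030) had the lowest.

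Other genes of energy metabolism are given for comparison, counted in the same way between IG2 and Multi-Lin-1, where 31.1% of all tested genes and 49.3% of widely detected genes were higher. All 6 genes listed with the chain but outside the name rule were higher by at least 1 log2 unit, among them Cyc1 (2.91) and Cycs, cytochrome c (1.65). That list also holds Cox17 (2.62), which serves the assembly of complex IV and is not a chain subunit. Of 35 tested assembly factors, which build the complexes without being part of them, 12 were higher and 0 lower, with a median of 0.49, close to the 0.53 of all tested genes. Of 16 genes of the citric acid cycle and pyruvate dehydrogenase 13 were higher (median 1.76), led by citrate synthase Cs at 3.60. Of 13 genes of mitochondrial mass and import 10 were higher (median 2.42), among them the outer membrane channel Vdac1 at 3.11. In glycolysis, 10 of 12 glycolytic genes were higher in IG2 (median 2.02), with Pgam1 at 4.15, Eno1 at 4.14 and Pkm at 4.10. Of 11 tested regulators of mitochondrial biogenesis 4 were higher (median 0.50), and Ppargc1a, the coactivator PGC-1α, was at 0 in every cell. Of 10 housekeeping genes 3 were higher (median 0.29). These counts use all cells and were not repeated in the shared range of genes detected or after regression on it. By summed TPM, the medians in Multi-Lin-1 and IG2 were 4033 and 8369 for glycolysis and 2340 and 3444 for the citric acid cycle list. They were 5312 and 7385 for mitochondrial mass and import, 1810 and 1981 for assembly factors, and 42238 and 32398 for housekeeping genes.

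Markers of other cell types differed between the same states, between which 31.1% of all tested genes were higher in IG2 and 2.54% lower. Of 6 tested erythroid and megakaryocyte genes 4 were lower in IG2 than in Multi-Lin-1 and 0 higher. Their summed TPM over 12 genes ran from 0.50 to 6593 with a median of 633 in Multi-Lin-1, from 0 to 1243 with a median of 9.08 in IG2, and up to 17095 with a median of 916 in cells without a state. The defining globin gene Hbb-b1 was at 0 in every cell, and Hba-a1 was detected in 3. Of 5 tested mast cell and basophil genes 3 were lower and 2 higher in IG2, with medians of the summed TPM over 8 genes of 992 in Multi-Lin-1 (0 to 8329) and 834 in IG2 (18.2 to 5419), and Cma1 and Tpsb2 at 0 in every cell. Monocyte and dendritic genes went the other way: the summed TPM over 8 genes had a median of 0.575 in Multi-Lin-1 (0 to 175), 188 in IG2 (0 to 3583), 2661 in proNeu-1 (82.7 to 5773) and 0 without a state (0 to 1269). Only Ly6c2 of that list was tested, at 4.07, while Csf1r was detected in 4 cells, Irf8 in 8 and Siglech in 0. The sum over 8 lymphoid genes had medians of 1385 (0 to 8417), 2961 (691 to 6861), 5441 (2767 to 8532) and 1586 (0.89 to 4974) in the same order. It rested on Nkg7, detected in 93 cells and 1.93 higher in IG2, whereas Cd3e, Ebf1, Il7r and Cd79a were detected in 0 cells. Cell cycle genes were also higher in IG2, 10 of 15 for S phase (median 1.64) and 11 of 15 for G2/M phase (median 1.69). The background was 31.1% of all tested genes and 49.3% of widely detected ones. Of the 15 genes in each list, 12 for S phase and 2 for G2/M phase were widely detected. The part of these cell types and of the cell cycle in the members' values was not tested.

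Splicing of the members was largely uniform. The deposited splicing table gives, per cell, PSI, without read counts, for 442 events in 68 members. Of 427 events with values in at least 10 cells, 55 events in 20 genes had a mean PSI from 0.05 to 0.95, or 12.9%, against 32.6% of all 34937 such events. With values in at least 5 cells the shares were 12.6% and 36.1%, and in at least 20 cells 10.9% and 22.7%. The background thus fell where events had values in more cells, and events were not matched for this. Of 278 examined junctions other than retained introns, 82.4% had both ends on exon boundaries of GENCODE M21 (GRCm38), and coordinates are given on that build.

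Atp5g1 showed 2 alternative first exons that join a shared next exon. The junction from the second of them, chr11:96075033-96075557, had a mean PSI of 0.177 ± 0.270 (SD, n = 80 cells) against the first, chr11:96075033-96075627. By state its mean was 0.086 in Multi-Lin-1 (n = 19), 0.157 in IG2 (n = 30), 0.151 without a state (n = 19) and 0.416 in proNeu-1 (n = 12). It was above 0 in 11 of 12 proNeu-1 cells, 19 of 30 IG2 cells, 5 of 19 Multi-Lin-1 cells and 7 of 19 cells without a state. Within proNeu-1 the mean was 0.471 in cells numbered 078 and 0.362 in those numbered 079, against 0.191 and 0.117 in IG2. The same state had the highest Atp5g1 share of c subunit TPM, 48.7%.

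In Atp5j, a subunit of the ATP synthase stalk, use of an alternative 5′ splice site (chr16:84831507-84834809) had a mean PSI of 0.752 ± 0.315 (n = 84 cells), with 0.639 in Multi-Lin-1, 0.858 in IG2, 0.774 in proNeu-1 and 0.694 without a state. The competing junction has neither end on an annotated exon boundary. Atp5j overlaps Gabpa on the opposite strand in the annotation, and no strand information is stated. In Ndufa6, the junction that skips exon 2 (chr15:82350371-82354081) had a mean of 0.065 ± 0.200 (n = 83), and in Ndufa7 a junction from its first exon to a later one (chr17:33824680-33829667) a mean of 0.060 ± 0.156 (n = 81). For Atp5h, 2 introns were read mostly as spliced, at 0.948 (n = 82) and 0.945 (n = 81). Atp5c1 carries an exon of 37 bases that heart and skeletal muscle are known to skip. Here its inclusion junctions had mean PSI of 0.997 and 0.980 (n = 84), the form known from other tissues. Fractions at 0 or 1 are common in single cells, and the spread of PSI over cells cannot be separated from few reads per junction.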

How the data were processed

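Single-cell RNA-seq of 96 cells was analysed as 1 sample of 1 group. The authors deposited expression as log2 values. Raising 2 to each and subtracting 1 gave a sum of 1000000 per cell, so they were read as log2(TPM + 1), and deposited TPM per length was recovered from them with a pseudocount of 1. Splicing was deposited by the authors as fractions (PSI, 0 to 1). Per the submitters' processing notes, STAR, RSEM and Bowtie2 served for alignment or quantification and mm10 and mm9 as genome builds. Their versions, and which build served which table, are not given in the sources used here. The splicing table's 1142 columns and the annotation's 511 state entries for cells of no label were not used. All 96 cells were kept, as each had at least 1000 genes at a TPM of 1 or more, and no doublet caller was run.

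Computed here (Python 3.11.15, pandas 2.3.3, NumPy 2.4.6, SciPy 1.17.1) were mean log2 differences between states, counted past 1 log2 unit over the members and over all genes detected in at least 10% of cells, sums of TPM, shares of cells with Clopper-Pearson 95% intervals, Spearman's rho, PSI means over events with at least 10 cells, and motif matches. The difference script was tested on data simulated by shuffling each gene's values over cells and adding known shifts. Shuffling removes the difference in genes detected between states, so that check does not cover it. No test was run, because no animal is named and cells are not replicates. Depth per cell is unknown, reads lack molecular identifiers, and intervals cover the counting of cells only. Of the 84 genes, 83 matched GENCODE M21, 1 of them by synonym, and 36 overlap another gene there, so their values may hold reads of the neighbour. Named are up to 10 members with the highest and lowest difference per comparison, core subunits, isoform families, genes at 0, up to 5 other genes per list and 10 splicing events with intermediate PSI and most cells; Atp5c1, Uqcr11, Cox6b2 events and single levels beyond these were chosen after their values were seen. Members and lists were chosen with earlier results of these data known. The values of 1 complex I gene are not reported here by name; it is kept in all counts, medians and sums.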

Additional observations from a re-analysis of the deposited data

How the results depend on the processing

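The settings that use detecting cells, ratios of mean TPM, the shared range of genes detected or leave out the 2 cells led by 1 gene were chosen after seeing the data. For IG2 against Multi-Lin-1 (56 members higher, 1 lower, median 1.44), the number higher was 36 with a pseudocount of 10 (46.8% of members, 11.8% of all tested genes), 37 centred per cell on genes found in 90% of cells or more (48.1%, 17.7%), 35 with medians over cells (45.5%, 25.1%), 15 among detecting cells (19.7%, 13.8%), 12 in the shared range (15.6%, 17.1%), 6 by the ratio of mean TPM (7.79%, 27.3%) and 4 after regression on genes detected (5.19%, 6.91%). The members thus stayed above all tested genes in the first 4 of these. Of the 77 tested members, 75 are widely detected, which most tested genes are not. Among these settings, the share of widely detected genes was computed only for detecting cells (14.7%) and the ratio (13%). The other settings therefore have no background of genes detected as widely as the members. The number lower was 0 with a pseudocount of 10, after rescaling without granule genes, in cells with at least 2000 genes, among cells numbered 079 and without the 2 cells led by 1 gene, 3 by the ratio, 4 among detecting cells, 6 after regression and 7 in the shared range. Its median was 0.46 among detecting cells, 0.18 in the shared range, 0.14 by the ratio and -0.059 after regression. Of these counts lower in IG2, only that after regression was above the share of all tested genes (7.79% of members, 5.56% of all). The shared range (9.09%, 10.9%) and detecting cells (5.26%, 17.6%) were below it, as was the ratio, where 20.4% of all tested genes were lower. For proNeu-1 against IG2 (7 higher, 4 lower, median 0.18), the number higher was 11 with a pseudocount of 0.1, 3 with 10, 4 after regression, 23 among cells numbered 079, 3 among detecting cells, 2 by the ratio and 4 in the shared range, and the number lower was 2 with a pseudocount of 10, 16 in cells numbered 078, 1 in those numbered 079 and 2 by the ratio. That median was -0.14 after regression and -0.027 by the ratio, and the difference of the median summed TPM, 1336 over all cells, was -328 in cells numbered 078. The share of members higher in proNeu-1 was above that of all tested genes only among cells numbered 079 (29.9%, 24.1%). The share lower was above it in cells numbered 078 (20.8%, 20.4%) and with a pseudocount of 10 (2.6%, 2.36%). The other counts listed for this comparison were below it. For no state against Multi-Lin-1 (3 higher, 25 lower), the number higher was 5 with a pseudocount of 0.1, 8 centred, 7 after regression, 5 in cells with at least 2000 genes, 7 with medians, 10 and 7 in cells numbered 078 and 079, 7 among detecting cells, 8 by the ratio and 6 in the shared range, and the number lower was 12 with a pseudocount of 10, 10 centred, 10 after regression, 10 among detecting cells and 7 by the ratio. Its median, -0.66, was -0.09 among detecting cells. The share of members higher was above that of all tested genes after regression (9.09%, 7.46%) and with medians. It was also above at 2000 genes (6.49%, 6.43%), among cells numbered 078 and in the shared range. It was below in the other settings listed, such as centred (10.4%, 11.3%). The share lower was above with a pseudocount of 10 (15.6%, 3.32%), centred (13%, 6.63%) and after regression (13%, 8.29%). It was below among detecting cells (13.3%, 15.6%) and by the ratio (9.09%, 27.4%). The median rho over member pairs, 0.149, was 0.0462 centred per cell, 0.0742 after regression and 0.0145 within proNeu-1. The cause of these shifts was not tested. The members detected in at least 50% of cells (69 to 75) and the splicing events of intermediate PSI (45 to 55) stayed close to their main values. No paired analysis was possible because all 96 cells are in 1 group and no label numbers replicates across groups. Limits: reads per cell are unknown, regression on genes detected also removes what states and genes detected share, and nothing separates 1 animal from several.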
